A study of Mus musculus with 18 samples.

Results

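The spinal dorsal horn of mice with bone cancer that received nivolumab was compared with that of sham mice, gene by gene, in 6 of the 18 libraries of a study of bone cancer pain and PD-1 blockade. All mice were labelled WT and no strain, age or tumour line was given in the sources used here. The 3 sham libraries came from sham mice given control IgG, and the 3 nivolumab libraries from mice that carried the cancer and were given nivolumab. A further 3 libraries of mice with the cancer and control IgG entered the fit only to share its estimate of the spread, and their values are given beside those of the other groups. The groups compared differ in both the tumour and the antibody, so the parts of these 2 cannot be told apart in this comparison. The labels number the libraries of each group 1 to 3 without saying whether they came from separate animals, so each p-value is measured against the spread of these libraries alone, and that spread may be technical.

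The dorsal horn is the part of the cord where sensory axons from the dorsal root ganglia end. Its excitatory and inhibitory interneurons pass on or damp pain signals, and astrocytes around them clear glutamate and GABA. Nivolumab is an antibody raised against human PD-1, an inhibitory receptor best known on T cells. Type I interferons act through a factor that holds Stat2 and Irf9 to switch on a set of antiviral genes in almost any cell, so that set serves as a readout of interferon signalling in a whole tissue.

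Levels are given as CPM, the count of a gene scaled to the trimmed-mean size of its library. Coordinates are those of GENCODE vM21 on GRCm38. Total counts ran from 21855085 to 29071908 over the 9 dorsal horn libraries. Of 15193 genes in the table, 13609 passed the expression filter and were tested. A change was called at an adjusted p under 0.05 in edgeR's quasi-likelihood test, which called 8.51% of all genes tested, 4.67% higher and 3.84% lower. In bulk tissue, a change in the number of cells of a type and in the RNA per cell cannot be told apart. Of the markers drawn up for cord cells, 19 of 19 for inhibitory neurons, 22 of 25 for excitatory neurons and 20 of 20 for astrocytes were among the genes tested. The same libraries also held RNA of tissues that lie next to the cord, in amounts that differed between the groups.

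Markers of sensory neurons of the dorsal root ganglion, whose cell bodies lie outside the cord, set the libraries apart. Scn10a, a sodium channel of pain-sensing neurons, had 0, 0.0789 and 89.4 CPM in sham 1 to 3, 0.105, 0.114 and 103 in cancer 1 to 3 and 307, 205 and 400.3 in nivolumab 1 to 3. Sham 3 and cancer 3 were thus high while the other 4 sham and cancer libraries were at or near 0, and all 3 nivolumab libraries were above them all. A count of 0 allows up to 3 counts, which is 0.103 to 0.133 CPM by library, for counting error only. Scn10a, and Acta1 below, were chosen after their values were seen. Summed over 30 ganglion markers, the libraries had 52.4, 46.5 and 677 CPM in sham, 53.5, 54.8 and 707 in cancer, and 2067, 1243 and 2322 with nivolumab. In sham 1 the count was 0 for 10 of the 30, among them Scn10a, Scn11a and Mrgprd, and in the nivolumab libraries for none. All 30 had positive fold changes (median log2 fold change 2.98, against −0.00 over all genes tested), and 1 was called with sham 3 in the fit. Alternative fits left out a library, took the library number as a block (replicate block) or took each library's mean level of the ganglion or muscle list as a covariate (ganglion or muscle covariate). The count of 1 was 5 with DESeq2, 2 with only the 6 libraries compared, 0 without sham 1, 6 without sham 3, 0 without nivolumab 1, 0 without nivolumab 3, 2 without cancer 2, 5 without cancer 3, 11 with the replicate block, 3 with the ganglion covariate and 30 without sham 3 and cancer 3 together. Without sham 3 the median was 6.94, without sham 3 and cancer 3 it was 6.96, and with the ganglion covariate, which is the mean of these same genes, it was −0.27. The called gene was Calcb, which encodes a CGRP peptide of sensory neurons, at 10.7 ± 2.87 CPM in sham and 29.1 ± 8.53 with nivolumab (± SD, n = 3, as throughout; log2 fold change 1.44 with SE 0.26 and adjusted p = 0.0151). Its call was lost without sham 1, nivolumab 1 or nivolumab 3 (adjusted p = 0.0708, 0.0730 and 0.0550), with the ganglion covariate (adjusted p = 0.0528) and with both covariates (adjusted p = 0.0733).

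Schwann cells wrap peripheral axons and satellite glia surround ganglion neurons. Their 17 markers summed to 325 to 884 CPM in sham, 268 to 705 in cancer and 1218 to 1409 with nivolumab, and only in cancer 3 was a member, Pmp2, at 0. Of these markers 5 rose and 12 did not pass (median 1.09). Sostdc1, an inhibitor of BMP and Wnt signalling, had 0.493, 1.26 and 1.21 CPM in sham and 7.10, 5.96 and 7.63 with nivolumab (log2 fold change 2.79 with SE 0.37 and adjusted p = 0.00586). Col28a1, a collagen of peripheral nerve, had 1.07, 1.54 and 4.44 CPM in sham and 26.3, 14.2 and 23.1 with nivolumab (log2 fold change 3.17 with SE 0.67 and adjusted p = 0.0313). Both groups of values were apart, and sham 3 was the highest sham library for Col28a1. Dhh, the hedgehog signal that Schwann cells release (log2 fold change 2.77), Matn2, a matrix protein (log2 fold change 1.22), and Gldn, a protein of the node of Ranvier (log2 fold change 1.03), were the other rises. The call of Sostdc1 held in all 19 alternative fits, whereas Col28a1 lost it in 7 and Dhh in 8. The count of 5 became 2 without sham 1, 3 without sham 2, 1 without nivolumab 1, 3 without nivolumab 2 and 2 without nivolumab 3.

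Muscle and blood moved in other ways. The 46 skeletal muscle genes summed to 373 to 610 CPM in sham, 285 to 748 in cancer, and 368, 1885 and 969 in nivolumab 1 to 3, so nivolumab 1 lay just below the sham range and nivolumab 2 and 3 above it. Acta1, the actin of skeletal muscle, had 4.64, 0.907 and 26.6 CPM in sham and 11.8, 240.0 and 89.1 with nivolumab. No muscle gene rose, although the median of the 45 tested was 2.59, or 1.18 without nivolumab 2. The count of 0 rises was 8 with DESeq2, 1 without cancer 3, 2 with the replicate block, 1 with the ganglion covariate, 1 with the muscle covariate and 3 with both covariates. A single gene fell: Pygm, muscle glycogen phosphorylase, which astrocytes express as well, went from 263 ± 9.88 to 181 ± 24.6 CPM (log2 fold change −0.54 with SE 0.12 and adjusted p = 0.0310). The Pygm call was lost in 7 of 19 alternative fits, among them those without any 1 of the 6 libraries compared. Of 9 tested red blood cell genes, 5 fell and none rose (median −1.96). Alas2, the erythroid enzyme that starts haem synthesis, had 27.7, 14.0 and 21.9 CPM in sham, 2.17, 4.0 and 2.34 in cancer and 3.16, 3.87 and 5.33 with nivolumab (log2 fold change −2.36 with SE 0.32 and adjusted p = 0.00703). This fall was seen in all 3 nivolumab libraries and called in each of the 19 alternative fits. Haemoglobin beta Hbb-bs had 494, 306 and 391 CPM in sham and 85.4, 97.5 and 119 with nivolumab (log2 fold change −1.98 with SE 0.29 and adjusted p = 0.0124). Its call was lost without nivolumab 1 (adjusted p = 0.0677). The nearly identical alpha genes Hba-a1 (log2 fold change −1.97) and Hba-a2 (log2 fold change −1.96), which may share reads, fell with it. The 17 red cell genes together summed to 859 to 1404 CPM in sham against 327 to 393 with nivolumab and 186 to 320 in cancer, so both tumour groups lay below sham. The count of 5 was 1 without nivolumab 1 and 3 without nivolumab 3.

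Of 27 tested genes of fibroblasts, meninges and tendon 2 rose, Postn and, lost in 6 of 19 alternatives, Cnmd. The count was 4 with DESeq2, 1 without sham 1, 4 without sham 2, 0 without nivolumab 1, 1 without nivolumab 2, 0 without nivolumab 3, 4 with the ganglion covariate and 1 with the muscle covariate. Postn, a matrix protein of fibroblasts and Schwann cell precursors, had 0.493, 1.5 and 2.12 CPM in sham and 10.3, 5.93 and 10.9 with nivolumab (log2 fold change 2.71 with SE 0.49 and adjusted p = 0.0139). Its call was lost without nivolumab 1 or nivolumab 3 (adjusted p = 0.0692 and 0.0548) and with both covariates (adjusted p = 0.0826). Of 7 bone and cartilage genes 1 fell, Dmp1 (log2 fold change −0.81, adjusted p = 0.0191), a bone matrix protein. Its call was lost without sham 1, nivolumab 1 or nivolumab 2 (adjusted p = 0.0759, 0.0946 and 0.0586) and with the ganglion covariate (adjusted p = 0.0567). None of 17 neutrophil, marrow and platelet genes (median −0.89) and neither of 2 fat cell genes passed.

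**Figure D1:**
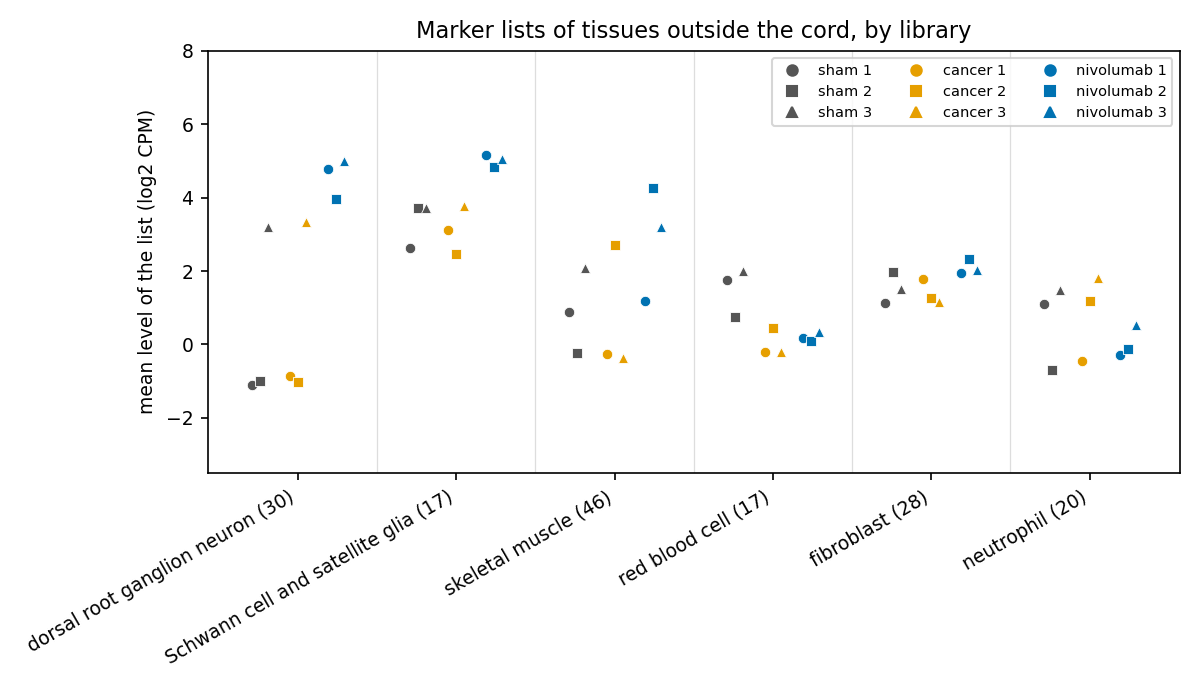
Mean log2 CPM of 6 marker lists of tissues outside the cord (number of genes in brackets) in each of the 9 dorsal horn libraries, with colour for the group and symbol for the library number. Ganglion markers are high in the 3 nivolumab libraries (3.97 to 4.995), lower in sham 3 and cancer 3 (3.21 and 3.33) and below 0 in the other 4, and red cell markers are highest in sham.

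Over all genes 1158 of 13609 (8.51%) were called, 635 higher (4.67%) and 523 lower (3.84%). At an unadjusted p under 0.05 there were 3558. The 3 nivolumab and 3 sham libraries did not overlap for 4795 genes (35.2%). Rises were larger than falls, with 175 rises but 16 falls of at least 2-fold. To separate likely outside tissue from other genes, each gene was set in a class. A gene was in a carry-over class where it belonged to one of the 8 lists above, or where it had a pattern seen in most ganglion markers. In that pattern it was at least 1.5 times higher in sham 3 than in sham 1 and 2 (CPM plus 0.5). It was also at least 1.5 times higher in cancer 3 than in cancer 1 and 2. Of 303 genes with that pattern outside the lists 25 (8.25%) rose and 1 (0.33%) fell. Of 154 listed genes 8 (5.19%) rose and 7 (4.55%) fell, against 4.67% and 3.84% over all genes tested. Among the 25 was S1pr3, a receptor for sphingosine 1-phosphate, with 8.47, 8.56 and 15.2 CPM in sham, 8.73, 6.77 and 13.2 in cancer and 42.9, 31.9 and 49.5 with nivolumab (log2 fold change 1.95 with SE 0.32 and adjusted p = 0.0130). The 1 fall was Gabrr2, a GABA receptor subunit, with 5.75, 3.63 and 13.4 CPM in sham and 0.692, 1.61 and 1.78 with nivolumab (log2 fold change −2.46 with SE 0.58 and adjusted p = 0.0378), so that sham 3 stood highest and nivolumab lowest. The Gabrr2 call was lost in 9 of 19 alternative fits. Ganglion markers, by contrast, were highest with nivolumab.

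Outside these classes 1117 genes were called, 602 higher and 515 lower. They included 2 rises among 214 genes with the reverse pattern, at most 1/1.5 in sham 3 and in cancer 3. Among the 12938 genes in no list and with neither pattern, 8.62% were called, near the 8.51% of all genes tested. The split was 4.64% higher and 3.98% lower, against 4.67% and 3.84% over all genes. Of the 600 rises with neither pattern the median ratio of sham 3 to sham 1 and 2 was 1.03, and of the 515 falls it was 1.04, against 1.00 over all genes tested. These genes were chosen in part by this ratio, since the classes take out its high values. Of the 600 rises 44.5% were above 1 in both sham 3 and cancer 3, as were 43.3% of the 515 falls, against 34% of all genes tested and 31.9% of the genes with neither pattern that were not called. Ganglion markers were higher with nivolumab than in sham 3, so a gene that ganglion and cord share can lie under the 1.5-fold rule. The pattern held for 27 of 30 ganglion markers, but for 3 of 17 Schwann cell and satellite glia markers. It held for 0 of 45 muscle genes and 0 of 27 genes of fibroblasts, meninges and tendon. Genes of nerve, muscle or fibroblasts that are in no list can thus be among the 1117 calls. The share of genes of either kind among the calls was not tested. Nor was the pattern particular to ganglion markers. It held for 8 of 17 neutrophil, marrow and platelet genes, 7 of 15 glucocorticoid-induced genes and 5 of 21 genes linked to reactive astrocytes. With a 2-fold rule in place of the 1.5-fold one 1138 calls lay outside, and with a looser rule, chosen after seeing the data, 1067. With the mean level of the ganglion list as a covariate in the fit 656 of the 1158 calls remained in the same direction (308 rises and 348 falls), with the muscle list 661 and, chosen after seeing the data, with both 708. Without sham 3 and cancer 3 together 881 remained. The number of calls rested heavily on single libraries: it was 95 without nivolumab 1, 310 without nivolumab 3, 228 without sham 1 and 652 without sham 2. Of the 1158 genes 87 (67 higher and 20 lower) were called in the same direction in all 19 alternatives.

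**Figure D2:**
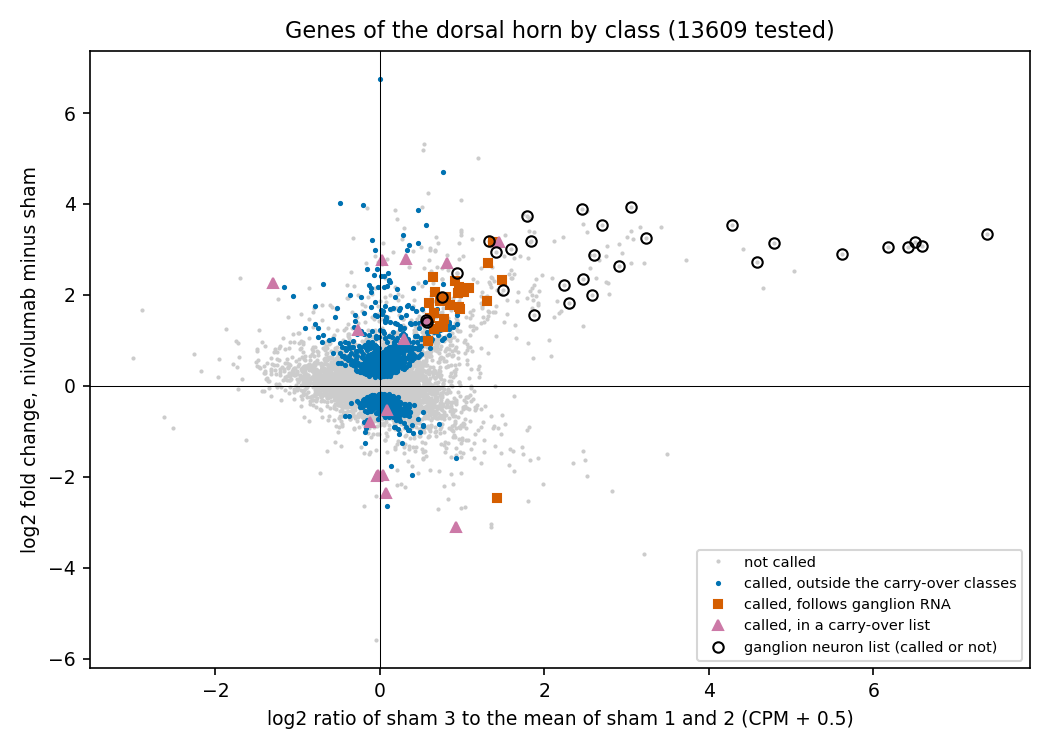
Each of 13609 tested genes by its log2 ratio of sham 3 to the mean of sham 1 and 2 (x axis) and its log2 fold change between nivolumab and sham (y axis), with colours for calls by class. Genes of the ganglion list (open circles) lie above 0, and most lie far to the right, as 27 of 30 follow the ganglion pattern. The called Calcb, at a ratio of 1.47, does not follow it. Most of the 1117 calls outside the carry-over classes (blue) lie near 0 on the x axis. This is in part fixed, since the classes take out high values of this ratio.

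Interferon-stimulated genes held the largest share of rises of any list used here. The list names a pathway and does not place the rises in cord cells. Of 33 tested members of the type I interferon list 20 rose, 13 did not pass and none fell, beside 4.67% called higher over all genes. All 33 fold changes were positive, with a median of 0.99 against −0.00 over all genes, and the sham and nivolumab libraries did not overlap for 27 of the 33, against 35.2% of all genes. Ifit1, which binds foreign RNA, had 2.06, 2.52 and 2.99 CPM in sham, 3.88, 2.25 and 3.89 in cancer and 25.5, 13.2 and 21.4 with nivolumab (log2 fold change 2.98 with SE 0.30 and adjusted p = 0.00380, on chromosome 19 from 34640871 to 34650009). Oasl2, of the oligoadenylate synthetase family, had 7.56, 6.94 and 7.85 CPM in sham, 5.62, 8.30 and 10.4 in cancer and 42.1, 28.7 and 39.5 with nivolumab (log2 fold change 2.30 with SE 0.22 and adjusted p = 0.00365, on chromosome 5 from 114896936 to 114912234). In both genes all 3 nivolumab libraries stood above the other 6, with nivolumab 2 the lowest of them. Lgals3bp, a secreted lectin-binding protein, had 23.0, 19.9 and 27.3 CPM in sham and 47.8, 44.6 and 51.9 with nivolumab (log2 fold change 1.04 with SE 0.11 and adjusted p = 0.00400, on chromosome 11 from 118392751 to 118402092). Stat2, a subunit of the factor that carries the interferon signal, had 36.9, 39.1 and 38.8 CPM in sham, 39.7, 38.1 and 42.7 in cancer and 71.0, 57.4 and 64.3 with nivolumab (log2 fold change 0.75 with SE 0.09 and adjusted p = 0.00442, on chromosome 10 from 128270559 to 128292849). These 4 genes, named by the rule, were called in all 19 alternatives. Irf9, a partner of Stat2 in that factor (log2 fold change 0.99, adjusted p = 0.0116), and Irf7, which amplifies interferon production (log2 fold change 1.75, adjusted p = 0.00984), rose as well and were picked for their roles after their values were seen.

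Ifit1 and Stat2 are shown with their promoters as 2 of the 4 members named by the rule, because both hold the letters GAAA, any 2 bases, and GAAA again, the core of the element that this factor is known to bind. The sequences are from RefSeq on GRCm38.p6, 250 bases before to 50 after the start site, 5′ to 3′, in lower case, with matches in capitals. Both strands were searched, and in these promoters the letters stand on the reverse strand, so they read TTTC, any 2 bases, TTTC here.
Ifit1, chr19:34640639-34640938, plus strand: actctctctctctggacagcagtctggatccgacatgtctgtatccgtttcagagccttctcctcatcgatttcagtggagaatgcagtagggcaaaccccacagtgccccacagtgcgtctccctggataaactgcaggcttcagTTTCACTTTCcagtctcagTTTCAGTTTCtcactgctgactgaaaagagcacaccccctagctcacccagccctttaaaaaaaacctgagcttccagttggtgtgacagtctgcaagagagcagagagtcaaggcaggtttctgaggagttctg
Stat2, chr10:128270248-128270547, plus strand: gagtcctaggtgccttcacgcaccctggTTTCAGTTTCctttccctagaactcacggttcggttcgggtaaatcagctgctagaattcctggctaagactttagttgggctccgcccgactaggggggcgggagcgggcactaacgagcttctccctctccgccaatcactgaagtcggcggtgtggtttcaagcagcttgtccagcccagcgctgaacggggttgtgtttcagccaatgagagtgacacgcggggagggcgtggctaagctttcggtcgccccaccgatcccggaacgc
Ifit1 held 2 matches, beginning 104 and 85 bases before the start site, and Stat2 held 1, beginning 222 before it. RefSeq gave a promoter for 22 tested members of the list, and 12 of these held the letters, 8 of 13 that rose and 4 of 9 that did not pass. Over all 27025 genes with a promoter of this length the share was 3.99%. The promoters of Oasl2 and Lgals3bp held no match. A match is a description of letters and no more.

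The 3 libraries with these rises were also those richest in ganglion markers, with the values given above. In sham 3 and cancer 3, which held ganglion RNA, the mean level of the interferon list was 1.92 and 2.45 log2 CPM, against 2.17 to 2.33 in the other 4 sham and cancer libraries and 2.88 to 3.36 with nivolumab. With the ganglion covariate 16 members were called higher, with the muscle covariate 18 and 20 without sham 3 and cancer 3 together. None of the 33 members followed the ganglion pattern, which only 3 of 17 Schwann cell and satellite glia markers followed. In nivolumab 1 to 3 the interferon list had mean levels of 3.36, 2.88 and 3.29 log2 CPM. The ganglion list had 4.785, 3.97 and 4.995, so nivolumab 2 was lowest in both. Whether the 2 are linked was not tested. The count of 20 became 8 without sham 1, 5 without nivolumab 1 and 9 without nivolumab 3.

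**Figure D3:**
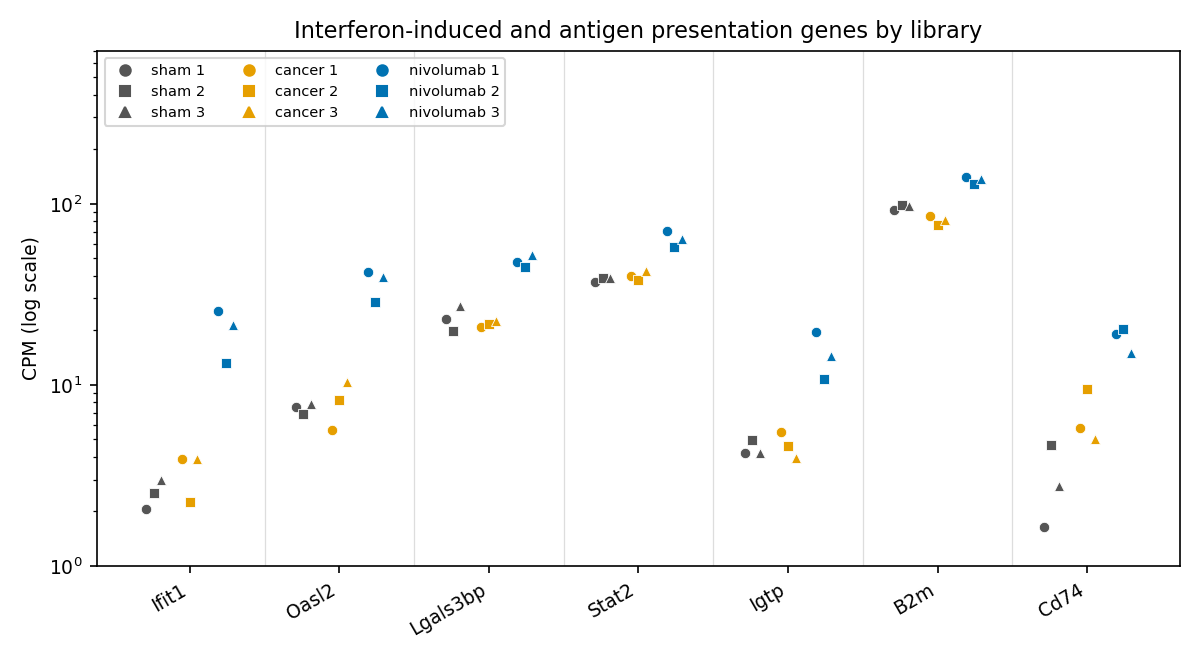
CPM on a log axis of 7 interferon-induced and antigen presentation genes in each of the 9 libraries. For every gene shown the 3 nivolumab libraries lie above the 3 sham and 3 cancer libraries, for Ifit1 at 13.2 to 25.5 against 2.06 to 3.89.

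Related immune genes showed smaller groups of calls. Of 7 interferon-inducible GTPases, which act on membranes around microbes, 3 rose and 4 did not pass (median 1.15). Igtp had 4.19, 4.93 and 4.21 CPM in sham and 19.5, 10.8 and 14.4 with nivolumab (log2 fold change 1.74 with SE 0.22 and adjusted p = 0.00572), a difference called in every alternative. Gbp2 (log2 fold change 1.12, adjusted p = 0.0421) and Gbp6 (log2 fold change 1.10, adjusted p = 0.0397) each lost their call in 9 of the 19 alternatives. The count was 1 without sham 1, 1 without sham 2, 1 without nivolumab 1, 1 without nivolumab 3 and 6 with both covariates. Guanylate-binding protein genes lie in clusters of related genes, where reads may be shared. Of 14 class I antigen presentation genes 4 rose (median 0.34, 14 of 14 positive). B2m, the light chain of class I molecules, had 92.5, 99.0 and 97.4 CPM in sham, 86.1, 76.1 and 81.3 in cancer and 140.4, 129 and 137 with nivolumab (log2 fold change 0.49 with SE 0.06 and adjusted p = 0.00572), and was called in all 19 alternatives. The chaperone Pdia3 (log2 fold change 0.40), the peptide-loading gene Tapbp (log2 fold change 0.32) and the proteasome activator Psme2 (log2 fold change 0.36) were the others, with adjusted p-values of 0.0126, 0.0186 and 0.0190. The count was 1 without sham 1, 1 without nivolumab 1, 2 without nivolumab 3 and 7 without sham 3 and cancer 3 together. Cd74, the chaperone of class II molecules, had 1.64, 4.65 and 2.77 CPM in sham, 5.76, 9.48 and 5.03 in cancer and 19.0, 20.3 and 15.0 with nivolumab (log2 fold change 2.58 with SE 0.37 and adjusted p = 0.00870) and was called in every alternative.

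None of 14 interferon receptor and signalling genes passed (median 0.08). The 2 with the smallest p were Irf1 (log2 fold change 0.76, adjusted p = 0.0665) and the receptor subunit Ifnar2 (log2 fold change 0.31, adjusted p = 0.0574). Irf1 was called higher in 5 and Ifnar2 in 4 of 19 alternatives, both with DESeq2 and with only the 6 libraries compared. Of 3 tested genes of the PD-1 axis and other checkpoints none passed. Cd274, which encodes the PD-1 ligand PD-L1, had 5.71, 4.81 and 5.91 CPM in sham, 6.56, 7.65 and 7.20 in cancer and 9.35, 6.62 and 8.44 with nivolumab (adjusted p = 0.0620), without overlap with sham. Such a lack of overlap was seen for 35.2% of all genes tested. Cd274 was called higher with DESeq2 (adjusted p = 0.0287) and without nivolumab 2 (adjusted p = 0.0425), and in no other alternative. Of 4 T and NK cell genes that could be tested 1 rose, the kinase Lck, at 0.648 ± 0.126 and 1.49 ± 0.203 CPM (adjusted p = 0.0441), and 14 of 19 alternatives did not call it. None of 22 microglial, 6 perivascular macrophage or 6 B and plasma cell genes passed, with medians of −0.05, −0.14 and 0.15. The microglial result depended on the fit: 11 with the ganglion covariate and 12 with both covariates were called higher, with medians of 0.58 and 0.66. Sham 3 and cancer 3, which held ganglion RNA, had the lowest microglial means of their groups (3.598 and 3.325 log2 CPM). The reverse of the ganglion pattern held for 8 of the 22. The part of these low values in the covariate fits was not tested. Of 16 cytokine and receptor genes 2 rose. Il6st, the shared gp130 chain of IL-6 family receptors, had 149, 167 and 145 CPM in sham and 269, 242 and 306 with nivolumab (log2 fold change 0.82 with SE 0.11 and adjusted p = 0.00572). Il10rb, a chain of the IL-10 receptor, rose as well (log2 fold change 1.24, adjusted p = 0.0121). The Il6st call held in all 19 alternatives, and that of Il10rb was lost without sham 1 or nivolumab 1 (adjusted p = 0.0565 and 0.0624) and with the ganglion covariate (adjusted p = 0.0550). Among 10 chemokine genes the receptor Cxcr4 rose (log2 fold change 1.52, adjusted p = 0.0131) and the ligand Cxcl14 fell (log2 fold change −0.57, adjusted p = 0.0147). Cxcr4 was lost without nivolumab 1 or nivolumab 3 (adjusted p = 0.0690 and 0.0533), and Cxcl14 without sham 1 or nivolumab 1 (adjusted p = 0.0624 and 0.0690) and with the ganglion covariate (adjusted p = 0.0501).

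Of 20 tested astrocyte genes 10 fell, 10 did not pass and none rose (median −0.38), beside the 3.84% called lower over all genes. Fgfr3, a growth factor receptor of astrocytes, had 362, 318 and 334 CPM in sham, 291, 286 and 288 in cancer and 199.8, 202 and 212 with nivolumab (log2 fold change −0.72 with SE 0.06 and adjusted p = 0.00149, on chromosome 5 from 33721674 to 33737068). Ntsr2, a neurotensin receptor, had 247, 251 and 251 CPM in sham, 203, 226 and 212 in cancer and 179, 190.0 and 182 with nivolumab (log2 fold change −0.44 with SE 0.05 and adjusted p = 0.00464, on chromosome 12 from 16653382 to 16660227). In both genes the cancer libraries lay between sham and nivolumab, and both calls held in all 19 alternatives. Aldoc, an aldolase of astrocytes, fell from 2289.7 ± 165 to 1582 ± 91.7 CPM (log2 fold change −0.53 with SE 0.07 and adjusted p = 0.00627). Gjb6, the gap junction protein connexin 30, fell from 171 ± 25 to 87.3 ± 11.6 (log2 fold change −0.97 with SE 0.13 and adjusted p = 0.00642). Agt, which encodes angiotensinogen, fell from 413 ± 63.5 to 211 ± 9.87 CPM (log2 fold change −0.97 with SE 0.15 and adjusted p = 0.0106). These 3 calls were lost without nivolumab 1, with adjusted p-values of 0.052, 0.051 and 0.066. The genes chosen after their values were seen include Slc1a2, the main glutamate transporter (log2 fold change −0.45, adjusted p = 0.0138), and Slc6a11, a GABA transporter of astrocytes (log2 fold change −0.49, adjusted p = 0.00819). Gfap and Aqp4, also looked up afterwards, were the 2 members with positive values (log2 fold changes 0.30 and 0.41, adjusted p = 0.737 and 0.556). With the ganglion covariate both were called higher, Gfap at 1.67 (adjusted p = 0.0056) and Aqp4 at 1.56 (adjusted p = 0.00131), and with both covariates likewise, at 1.68 (adjusted p = 0.0137) and 1.72 (adjusted p = 3.04e-05). Gfap had 1664, 2072 and 807 CPM in sham and 2076, 2098 and 1428 with nivolumab, with sham 3 the lowest, and without sham 3 its log2 fold change was −0.00098. The count of 10 was 3 without nivolumab 1 and 9 with the ganglion covariate.

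Of 21 genes linked to reactive astrocytes 4 rose and none fell (median 0.39). Vim, an intermediate filament of astrocytes that many other cells also make, had 55.7, 67.9 and 63.6 CPM in sham, 63.0, 86.8 and 85.2 in cancer and 154, 127 and 153 with nivolumab (log2 fold change 1.21 with SE 0.13 and adjusted p = 0.00442, on chromosome 2 from 13573927 to 13582826), and was called in every alternative. S1pr3, described above, Stat3, a transcription factor downstream of gp130 (log2 fold change 0.56, adjusted p = 0.0303), and Ggta1, a galactosyltransferase (log2 fold change 0.98, adjusted p = 0.0374), were the others. Stat3 lost its call in 7 and Ggta1 in 9 of 19 alternatives. The count was 1 without sham 1, 2 without sham 2, 1 without nivolumab 1, 2 without nivolumab 3, 2 with the muscle covariate and 7 without sham 3 and cancer 3 together. With the ganglion covariate the list median was 0.08, and with both covariates −0.06.

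Among inhibitory neuron genes 4 of 19 fell and none rose (median −0.26). Pax2, a transcription factor of dorsal inhibitory neurons, had 26.9, 30.6 and 30.6 CPM in sham, 32.6, 35.2 and 30.6 in cancer and 19.6, 22.4 and 19.4 with nivolumab (log2 fold change −0.52 with SE 0.09 and adjusted p = 0.0129). Slc32a1, which fills vesicles with GABA and glycine, went from 164 ± 5.92 to 127 ± 7.17 CPM (log2 fold change −0.38 with SE 0.07 and adjusted p = 0.0150). Slc6a5, the neuronal glycine transporter, went from 471 ± 22.8 to 367 ± 14.3 (log2 fold change −0.36 with SE 0.07 and adjusted p = 0.0183). Each of these 3 genes had no overlap between sham and nivolumab, and the cancer libraries lay at or above sham. In the whole list 6 of 19 genes had no overlap, against 35.2% of all genes tested. The count of 4 was 2 without sham 1, 0 without nivolumab 1, 1 without nivolumab 3 and 2 with the ganglion covariate.

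Receptors and chloride pumps for GABA and glycine had 6 falls and no rise among 23 genes (median −0.19). Gabra5, a subunit of GABA-A receptors outside synapses, had 69.2, 70.3 and 72.4 CPM in sham and 50.6, 55 and 55.5 with nivolumab (log2 fold change −0.40 with SE 0.06 and adjusted p = 0.00984). Slc12a5, the chloride pump KCC2 on which inhibition by GABA depends, had 657, 679.5 and 665 CPM in sham and 495, 537 and 466 with nivolumab (log2 fold change −0.42 with SE 0.07 and adjusted p = 0.0103). The subunits Gabra3 (log2 fold change −0.36, adjusted p = 0.0151) and Gabrb1 (log2 fold change −0.42), and Gabrr2, given above, fell as well. The count was 3 without sham 1, 0 without nivolumab 1, 3 without nivolumab 2, 2 without nivolumab 3, 3 with the ganglion covariate, 3 with the muscle covariate and 3 with both covariates. Of 24 glutamate receptor genes 4 fell and none rose (median −0.24). The AMPA receptor subunit Gria3 went from 146 ± 4.76 to 114 ± 2.60 CPM (log2 fold change −0.36 with SE 0.05 and adjusted p = 0.00833). The NMDA receptor subunits Grin1 (log2 fold change −0.41, adjusted p = 0.0134) and Grin2c (log2 fold change −0.90, adjusted p = 0.0422) fell as well. That count was 8 with DESeq2, 2 without sham 1, 2 without sham 2, 2 without sham 3, 0 without nivolumab 1, 1 without nivolumab 3 and 7 with the replicate block. Of 8 opioid genes the nociceptin receptor Oprl1 (78.4 ± 6.47 to 60.2 ± 3.14 CPM, adjusted p = 0.0152) and the enkephalin precursor Penk (180.0 ± 20.2 to 139 ± 14.9 CPM, adjusted p = 0.0413) fell. Oprl1 was lost without nivolumab 1 or nivolumab 3 (adjusted p = 0.0893 and 0.0712), and Penk in 14 of 19 alternatives. The 3 libraries low in these cord genes were those richest in ganglion and Schwann cell markers, and the share of cord RNA in each library was not tested.

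**Figure D4:**
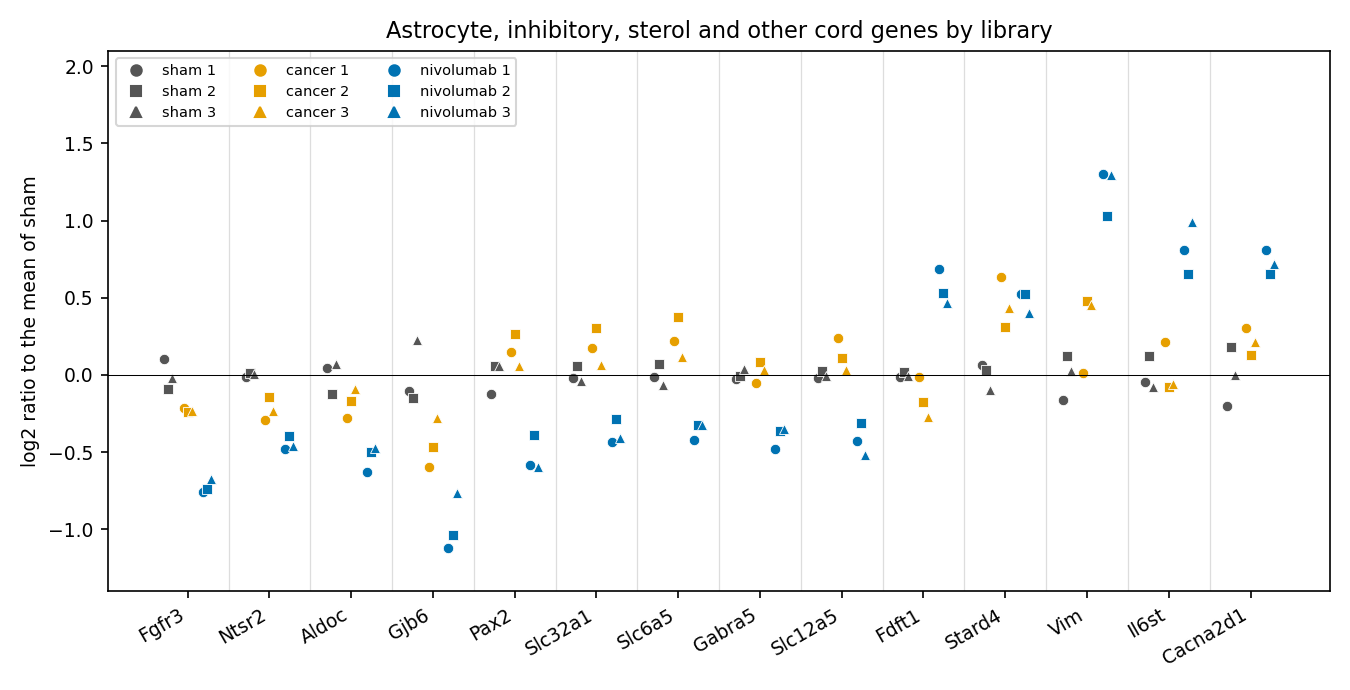
log2 ratio of each of the 9 libraries to the mean of the 3 sham libraries for 14 genes: 4 astrocyte genes, 3 inhibitory neuron genes, a GABA receptor subunit and a chloride pump, 2 sterol genes and 3 other rises. The nivolumab libraries lie below 0 for the 9 genes on the left and above 0 for the 5 on the right, apart from the 3 sham libraries in each gene.

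Excitatory neuron markers had 1 rise among 22 (median 0.09). It was Tac1, the precursor of substance P, which sensory neurons of the ganglion make as well, with 11.4, 15.0 and 21.1 CPM in sham, 25.8, 23.4 and 30.1 in cancer and 56.6, 40.8 and 53.1 with nivolumab (log2 fold change 1.66 with SE 0.22 and adjusted p = 0.00711, on chromosome 6 from 7554879 to 7565834). Cancer libraries lay between, sham 3 was the highest sham library, and the call held in all 19 alternatives, with log2 fold changes of 1.17 to 1.94. Among 11 motor and ventral horn markers the transcription factor Shox2 rose (log2 fold change 1.28, adjusted p = 0.0409), a call lost in 8 of 19 alternatives, and the other 10 had negative values (median of the 11 −0.34).

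Of 22 synaptic vesicle genes 7 fell and 1 rose (median −0.08). Vamp1 fell from 1819.9 ± 102 to 1398 ± 85.6 CPM (log2 fold change −0.38 with SE 0.06 and adjusted p = 0.0106). Rab3a (log2 fold change −0.28, adjusted p = 0.0119) fell with it, and both are parts of the vesicle fusion machinery. The syntaxin Stx1a, which is prominent in sensory neurons, rose (log2 fold change 0.79, adjusted p = 0.0191), a call lost without sham 1, sham 3, nivolumab 1 or nivolumab 3 (adjusted p = 0.0810, 0.0534, 0.0893 and 0.0546). The 7 falls became 3 with scaling on genes outside the carry-over classes, 2 without sham 1, 4 without sham 2, 3 without sham 3, 0 without nivolumab 1, 3 without nivolumab 2, 2 without nivolumab 3, 3 without cancer 2, 4 without cancer 3 and 3 without sham 3 and cancer 3 together. Of 24 sodium and calcium channel genes of central neurons 7 fell and 3 rose. Cacna2d1, the calcium channel subunit that gabapentin binds, had 55.1, 71.8 and 63.3 CPM in sham, 78.3, 69.2 and 73.5 in cancer and 111, 99.9 and 104 with nivolumab (log2 fold change 0.73 with SE 0.10 and adjusted p = 0.00572), called in all 19 alternatives. Cacnb3 rose from 44.2 ± 11.8 to 108 ± 13.8 CPM (log2 fold change 1.29 with SE 0.21 and adjusted p = 0.0129). Its call was lost without nivolumab 1 or nivolumab 3 (adjusted p = 0.0683 and 0.0530). The nivolumab libraries were also the richest in ganglion markers, and whether the rises of Cacna2d1 and Cacnb3 arose in cord was not tested. Cacng2, the AMPA receptor partner stargazin, fell (log2 fold change −0.42, adjusted p = 0.00984). The 7 falls became 4 with scaling on genes outside the carry-over classes, 4 with only the 6 libraries compared, 1 without sham 1, 4 without sham 2, 1 without sham 3, 0 without nivolumab 1, 3 without nivolumab 2, 2 without nivolumab 3, 4 without cancer 1, 3 without cancer 2, 4 without cancer 3, 4 with the ganglion covariate, 4 with the muscle covariate and 2 without sham 3 and cancer 3 together. The 3 rises became 1 without nivolumab 1 and 1 without nivolumab 3. Of 33 potassium and HCN channel genes 3 rose, Hcn3 (log2 fold change 0.63), Kcnd3 (log2 fold change 0.82) and, named after its value was seen, Kcnj12 (log2 fold change 0.48). In turn 3 fell, among them Kcnk9 (log2 fold change −0.61) and, also named afterwards, Kcnc1 (log2 fold change −0.24). Kcnc1 lost its call in 11, Kcnj12 in 8, Kcnd3 in 6 and Hcn3 in 2 of 19 alternatives. The 3 rises became 6 with DESeq2, 0 without sham 1, 1 without sham 2, 0 without nivolumab 1, 1 without nivolumab 3, 6 with the replicate block, 5 with the ganglion covariate, 5 with both covariates and 5 without sham 3 and cancer 3 together. The 3 falls became 7 with DESeq2, 1 without sham 1, 0 without nivolumab 1, 5 with the replicate block, 5 with the ganglion covariate and 6 with both covariates. Kcnk9, the leak channel TASK-3, had 292, 250.4 and 262 CPM in sham and 156, 188 and 185 with nivolumab (adjusted p = 0.0106), and this call was lost without nivolumab 1 (adjusted p = 0.0575).

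Of 23 genes of cholesterol synthesis and uptake 11 rose, none fell and 12 missed the threshold, with 22 of 23 positive (median 0.55). Fdft1, squalene synthase, had 153, 156 and 153 CPM in sham, 153, 136 and 128 in cancer and 248, 223 and 213 with nivolumab (log2 fold change 0.57 with SE 0.08 and adjusted p = 0.00624, on chromosome 14 from 63145150 to 63179578). The nivolumab libraries of Fdft1 were above the other 6, and its call held in all 19 alternatives. Stard4, a sterol carrier, rose from 45.2 ± 2.65 to 63.2 ± 3.00 (log2 fold change 0.48 with SE 0.09 and adjusted p = 0.0138), a call lost without sham 1 or nivolumab 1 (adjusted p = 0.0513 and 0.0691). Mean levels of the list were 6.05 to 6.45 log2 CPM in sham, 5.85 to 6.23 in cancer and 6.71 to 6.93 with nivolumab, and sham 3 and cancer 3, which held ganglion RNA, were the lowest of their groups. The count of 11 became 18 with DESeq2, 2 without sham 1, 7 without sham 3, 2 without nivolumab 1, 6 without nivolumab 2, 20 with the replicate block, 19 with the ganglion covariate, 6 with the muscle covariate and 21 with both covariates.

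Other lists held few calls. Of 17 oligodendrocyte genes 1 fell, Mobp, a protein of central myelin, with 9522, 8036 and 9366 CPM in sham, 4432, 4973 and 4908 in cancer and 5463, 5838 and 6045 with nivolumab (log2 fold change −0.63 with SE 0.08 and adjusted p = 0.00522). Both tumour groups were below sham, and the call held in all 19 alternatives. The other 16 did not pass (median of the 17 0.01), but 9 with the ganglion covariate and 9 with both covariates were called higher (median 0.48 in each). Here too sham 3 and cancer 3 had the lowest list means of their groups (8.737 and 7.987 log2 CPM). The reverse of the ganglion pattern held for 7 of the 17. The count of falls was 2 with DESeq2, 3 with only the 6 libraries compared, 2 without cancer 1, 3 without cancer 3, 2 with the replicate block and 6 without sham 3 and cancer 3 together. Of 12 precursor genes the growth factor receptor Pdgfra fell (log2 fold change −0.50, adjusted p = 0.0186), lost without sham 1, nivolumab 1 or nivolumab 3 (adjusted p = 0.0591, 0.0878 and 0.0723). Of 16 endothelial genes the barrier transporters Slc2a1, for glucose (337 ± 13.5 to 217 ± 31.5 CPM, adjusted p = 0.0129), and Mfsd2a, for lipids (97.6 ± 8.48 to 60.5 ± 7.01, adjusted p = 0.0406), fell. Slc2a1 was lost without nivolumab 1 (adjusted p = 0.0698), and Mfsd2a in 9 of 19 alternatives. Immediate early genes, which mark recent activity, had 2 rises among 19, Nr4a1 (log2 fold change 0.86) and Nr4a2 (log2 fold change 0.98), lost in 7 and 11 of 19 alternatives. The count of 2 was 5 with DESeq2, 5 with only the 6 libraries compared and 0 without sham 1, sham 2 or nivolumab 1. It was 1 to 3 in the other fits. Called lower were 1 with the ganglion covariate and 3 with both covariates. The growth-associated gene Gap43 was the only call among 15 sensory neuron injury genes (log2 fold change 0.32, adjusted p = 0.0313, lost in 7 of 19). The clock output gene Tef was the only call among 16 circadian genes (log2 fold change −0.39, adjusted p = 0.0281, lost in 7 of 19). The circadian count of 1 lower was 3 with DESeq2, 2 with upper-quartile factors, 2 with only the 6 libraries compared, 0 without sham 1, 0 without nivolumab 1, 0 without nivolumab 2, 0 without nivolumab 3, 3 without cancer 1, 2 with the replicate block, 4 with the ganglion covariate, 0 with the muscle covariate and 5 with both covariates.

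Of 76 ribosomal protein genes 2 fell, with 72 of 76 values negative (median −0.15), and of 61 oxidative phosphorylation genes 5 fell, with 49 negative (median −0.09). Rpl8 (log2 fold change −0.22, adjusted p = 0.0284) and Sdha (log2 fold change −0.20, adjusted p = 0.0216) were examples, lost in 10 and 8 of 19 alternatives. The 2 ribosomal falls became 14 with DESeq2, 1 with scaling on genes outside the carry-over classes, 1 with only the 6 libraries compared, 0 without sham 1, 5 without sham 2, 0 without sham 3, 0 without nivolumab 1, 0 without nivolumab 2, 0 without nivolumab 3, 1 without cancer 1, 1 without cancer 2, 8 with the replicate block, 28 with the ganglion covariate, 0 with the muscle covariate, 25 with both covariates and 0 without sham 3 and cancer 3 together. The 5 oxidative phosphorylation falls became 8 with DESeq2, 3 with scaling on genes outside the carry-over classes, 3 with only the 6 libraries compared, 0 without sham 1, 1 without sham 2, 1 without sham 3, 0 without nivolumab 1, 0 without nivolumab 2, 0 without nivolumab 3, 2 without cancer 2, 3 without cancer 3, 2 with the ganglion covariate, 3 with the muscle covariate and 0 without sham 3 and cancer 3 together. None of 18 unfolded protein response, 21 cell cycle, 12 ependymal and 11 pericyte genes passed, although 7 unfolded protein response genes were called higher with both covariates. Nor did any of 15 glucocorticoid-induced genes pass, whose median was −0.71 with 14 of 15 negative. Called lower were 4 with DESeq2, 3 with only the 6 libraries compared, 6 without cancer 1, 2 with the replicate block, 5 with the ganglion covariate and 8 with both covariates. The median was −1.23 with the ganglion covariate, −1.54 with both covariates and −0.41 without sham 3 and cancer 3 together. Plin4, a lipid droplet protein, had 156, 125 and 289 CPM in sham, 48.0, 247 and 332 in cancer and 23.8, 24.9 and 40.3 with nivolumab (adjusted p = 0.0739). It was among 7 of those 15 genes that stood high in sham 3 and cancer 3.

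Hox genes mark position along the cord. None of 13 tested genes of paralog groups 8 to 13 passed, with 12 of 13 negative (median −0.44), while the 13 of groups 3 to 7 had a median of −0.00. Of groups 8 to 13, 3 were called lower with DESeq2, 2 without nivolumab 3 and 2 with the replicate block. A further 3 fits called 1 lower: only the 6 libraries compared, without cancer 2 and the ganglion covariate. The ganglion covariate also called 1 of these and 4 of groups 3 to 7 higher. Mean levels of the posterior genes were 2.42 to 2.76 log2 CPM in sham, 2.17 to 2.79 in cancer and 1.24 to 2.06 with nivolumab. Hoxc10, which marks lumbar cord, had 94.7, 102 and 109.6 CPM in sham and 49.3, 48.3 and 84.6 with nivolumab (adjusted p = 0.0596), so nivolumab 3 was nearer to sham than nivolumab 1 and 2. It was called lower with DESeq2 (adjusted p = 0.00152), without nivolumab 3 (adjusted p = 0.00626) and with the replicate block (adjusted p = 0.0182). By mean CPM Hoxc10 fell 1.68-fold. Larger falls, also not called and named after their values were seen, were those of Hoxc11 (8.55-fold), Hoxd11 (6.7-fold), Hoxa11 (3.7-fold) and Hoxd10 (2.72-fold). Whether the segments taken differed between groups was not tested, and every result above compares libraries in which these values also differed.

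**Figure D5:**
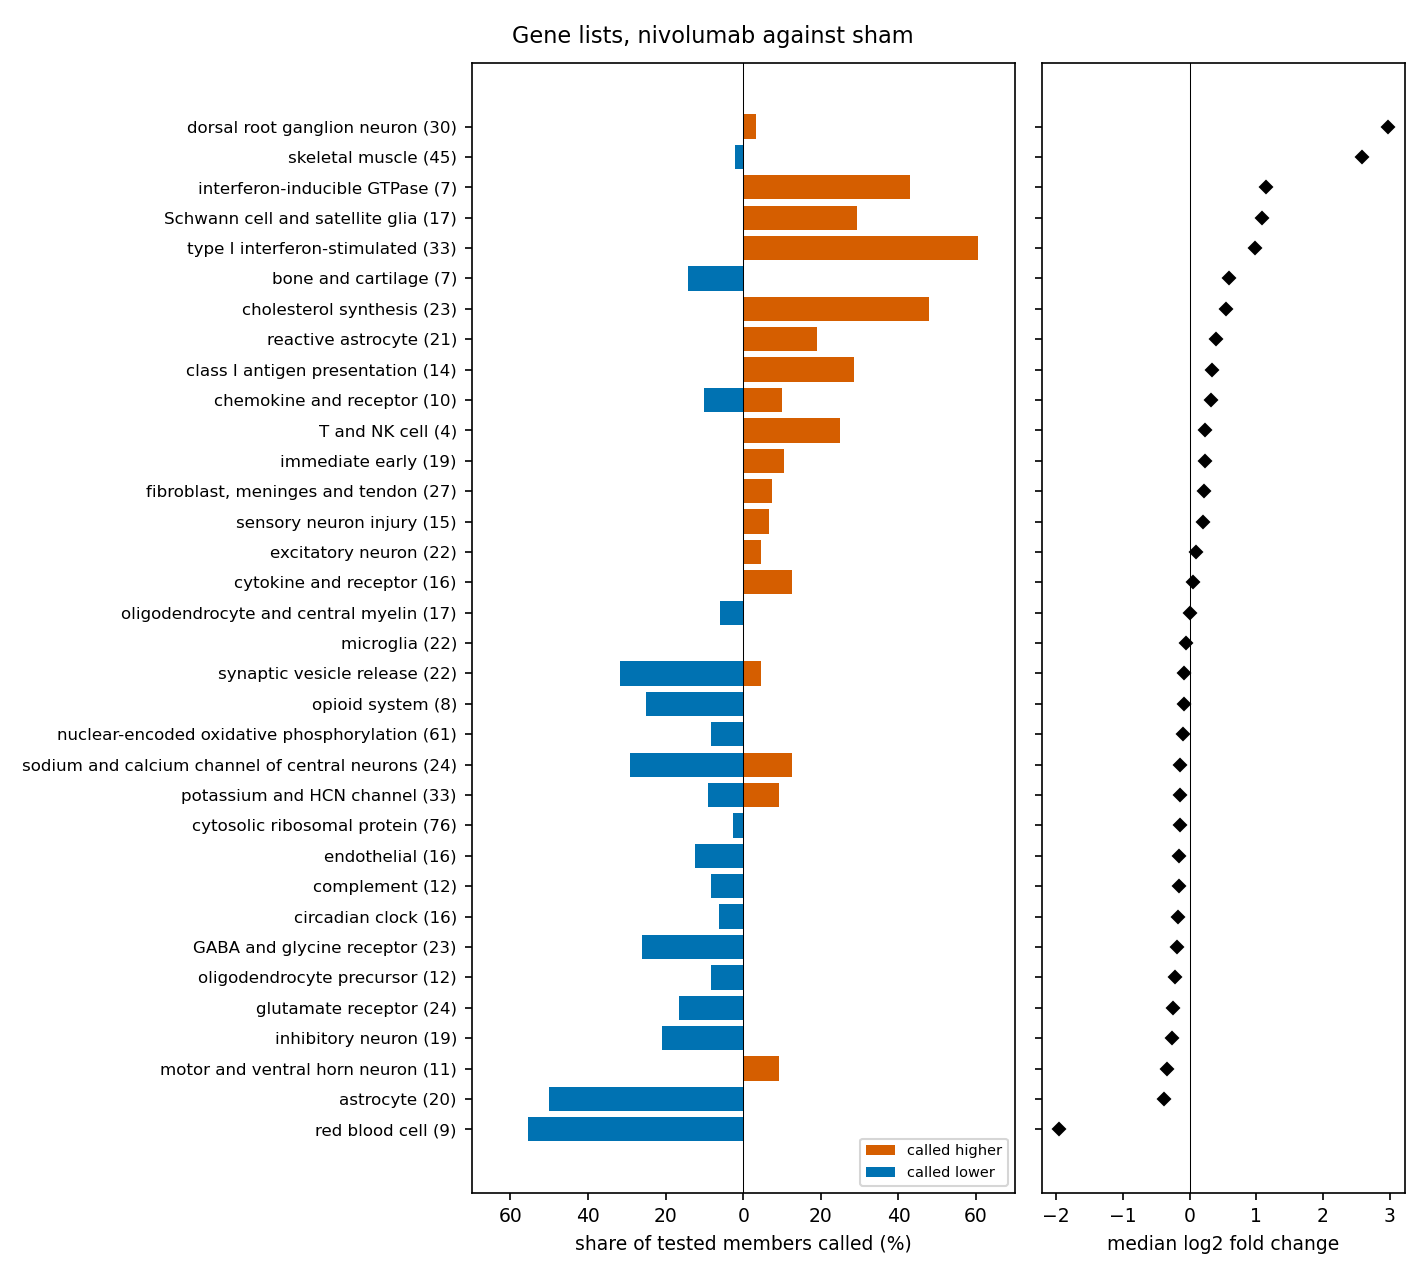
Share of tested members called higher (orange) or lower (blue) in each list with a call, and in microglia for comparison, with the number of tested members in brackets, and the median log2 fold change of the list (diamonds). Interferon, GTPase and sterol lists lean to rises, and astrocyte and red cell lists to falls, against 4.67% and 3.84% over all genes.

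The largest changes outside the carry-over classes, among genes of at least 1 log2 CPM on average and without overlap, came from several kinds of gene. After Ifit1 and Cd74, the rises were led by Olfml2a, an olfactomedin-like protein, with 1.60, 2.17 and 1.82 CPM in sham, 3.35, 1.79 and 1.68 in cancer and 10.7, 10.6 and 11.8 with nivolumab (log2 fold change 2.56 with SE 0.27 and adjusted p = 0.00380). Prss35, a secreted serine protease homologue, had 3.78, 3.27 and 4.13 CPM in sham and 16.4, 12.9 and 19.9 with nivolumab (log2 fold change 2.14 with SE 0.19 and adjusted p = 0.00268). Fbln2, a fibulin of the extracellular matrix, had 9.70, 9.90 and 7.51 CPM in sham, 6.36, 6.58 and 7.55 in cancer and 33.6, 33.4 and 42.0 with nivolumab (log2 fold change 2.01 with SE 0.14 and adjusted p = 0.00119, on chromosome 6 from 91212455 to 91272540). These 3 matrix and secreted genes were called in all 19 alternatives, with all nivolumab libraries above the other 6. Kcnv1, a modifier of potassium channels (log2 fold change 2.31, adjusted p = 0.0117), was lost without nivolumab 1 (adjusted p = 0.0616). Fam89a (log2 fold change 2.14, adjusted p = 0.00984) was lost without sham 1 or nivolumab 1 (adjusted p = 0.0501 and 0.0567). Ly86, the partner of the receptor Cd180 on myeloid and B cells, had 10.7, 10.6 and 12.2 CPM in sham, 6.56, 5.63 and 16.1 in cancer and 49.3, 28.3 and 51.7 with nivolumab, with cancer 3 high (log2 fold change 1.95 with SE 0.41 and adjusted p = 0.0305), and was lost in 6 of 19 alternatives. Pgam2, the muscle form of phosphoglycerate mutase, had 2.06, 1.46 and 1.90 CPM in sham and 3.20, 13.2 and 8.37 with nivolumab, high in the libraries rich in muscle RNA, and was in no list (log2 fold change 2.20 with SE 0.56 and adjusted p = 0.0459, lost in 11 of 19).

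The falls were smaller. Slc24a4, a sodium-calcium exchanger, had 26.0, 28.5 and 32.8 CPM in sham, 22.1, 26.1 and 33.4 in cancer and 12.8, 13.5 and 10.3 with nivolumab (log2 fold change −1.26 with SE 0.17 and adjusted p = 0.00583, on chromosome 12 from 102128733 to 102267091), the only 1 of the 10 largest that was called in all 19 alternatives. Ptgs2, the inducible cyclooxygenase COX-2 that makes prostaglandins, had 2.01, 4.30 and 3.53 CPM in sham, 1.92, 1.94 and 3.53 in cancer and 0.865, 1.06 and 0.962 with nivolumab (log2 fold change −1.76 with SE 0.36 and adjusted p = 0.0193). Its call was lost without sham 2, nivolumab 1 or nivolumab 3 (adjusted p = 0.0586, 0.0961 and 0.0768) and with the muscle covariate (adjusted p = 0.0738). Agt, given above, was also among them. Gli2, a hedgehog-driven transcription factor (15.3 ± 2.70 to 7.84 ± 0.723 CPM, adjusted p = 0.0222), was lost in 5 of 19 alternatives. Dao, the D-amino acid oxidase of astrocytes (34.1 ± 5.87 to 16.6 ± 2.43, adjusted p = 0.0490), was lost in 11, Tmem44 (log2 fold change −1.02) in 6 and Acss3 (log2 fold change −1.59) in 6 of 19 alternatives. Muc1 (log2 fold change −1.07) was lost without sham 1, nivolumab 1 or nivolumab 3 (adjusted p = 0.0565, 0.0817 and 0.0647). Slco4a1, an organic anion transporter (log2 fold change −1.01), was lost without sham 1 or nivolumab 1 (adjusted p = 0.0539 and 0.0730), and the peptide gene Uts2b (log2 fold change −1.27) in 10 of 19.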

How the data were processed

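RNA from the dorsal horn was sequenced on an Illumina NovaSeq, per the labels' protocols. The deposited values are whole-number read counts per gene, not normalized. FastQC 0.11.5, Trimmomatic, HISAT2, StringTie and GRCm38 are named, per the submitters' processing notes. The counter, strand setting and annotation were not given in the sources used here. Counts of all 9 dorsal horn libraries were fitted in edgeR 4.0.16 (R 4.3.3, limma 3.58.1) with TMM factors, its expression filter by group and the robust quasi-likelihood test, and p-values were adjusted by Benjamini-Hochberg over 13609 genes at 0.05. The biological coefficient of variation was 0.17. The script was tested on simulated counts. Alternatives were DESeq2 1.42.0, other scaling, no filter, 6 libraries, each library left out, a replicate block, and ganglion or muscle scores as covariates. The members and lists were chosen with earlier results of these data known. Genes named were, by rule, the 8 largest rises and falls, the 10 of each outside the carry-over classes, and up to 4 called members of a list, or 2 where none was called, by adjusted p. The text leaves some out, some genes are not reported here, and others are said to be chosen after their values were seen. Promoters, on GRCm38.p6, came from RefSeq. The colon libraries were not analysed here.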

Additional observations from a re-analysis of the deposited data

How the results depend on the processing

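The main counts were 1158 calls, 635 higher and 523 lower, with 1117 outside the carry-over classes. Leaving out a library gave between 95 and 1237 calls, 74 to 751 higher and 21 to 506 lower, and 93 to 1159 outside the classes. DESeq2 gave 1956 calls (1022 higher, 934 lower, 1809 outside), of which 1157 were among the 1158. The ganglion covariate gave 2135 (1107, 1028, 2006), the muscle covariate 729 (395, 334, 710) and both, chosen after seeing the data, 2457 (1299, 1158, 2320). The replicate block gave 1685 calls (952 higher, 733 lower). The cause of these differences was not tested. The paired reading of library numbers had little support: the deviations of sham and nivolumab libraries with the same number correlated at −0.0779, 0.000745 and 0.238, and own numbers correlated best only for number 3. Scn10a turned to a log2 fold change of −0.79 with the ganglion covariate, to which it belongs, and to −1.34 with both; Acta1 turned to −0.16 with both, and Gfap ran from −0.000979 (without sham 3) to 0.595 as libraries were left out. A stricter 2-fold carry-over rule left 1138 calls outside the classes, and a looser one, chosen after seeing the data, 1067. With 3 counts as a limit, levels under 0.103 to 0.133 CPM cannot be told from 0.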

Other observations

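Among the 87 genes called in the same direction in all 19 alternatives were several in no list, named here after their values were seen. Adcyap1, the neuropeptide PACAP, had 16.5, 20.6 and 15.7 CPM in sham, 28.9, 23.7 and 20.3 in cancer and 43.3, 37.0 and 38.7 with nivolumab (log2 fold change 1.17 with SE 0.14 and adjusted p = 0.00521). Htr1d, a serotonin receptor, had 3.37, 3.43 and 3.60 CPM in sham, 4.96, 3.27 and 5.03 in cancer and 9.48, 8.5 and 11 with nivolumab (log2 fold change 1.48 with SE 0.19 and adjusted p = 0.00572). Cd9, a tetraspanin, went from 75.1 ± 7.04 to 197 ± 25.9 CPM (log2 fold change 1.39 with SE 0.19 and adjusted p = 0.00829), and Ldha, which makes lactate, from 97.2 ± 6.77 to 185 ± 20.1 (log2 fold change 0.93 with SE 0.09 and adjusted p = 0.00365). In all 4 the nivolumab libraries stood above the other 6. Those libraries were also the richest in ganglion and Schwann cell markers. Being in no list does not place a gene in cord cells, and the source of these rises was not tested.

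The falls called in every alternative included enzymes of amino acid metabolism. Glul, glutamine synthetase, which astrocytes use to dispose of glutamate, had 3012, 2798 and 3148 CPM in sham, 2248, 2258 and 2641 in cancer and 1709, 1783 and 2069.9 with nivolumab (log2 fold change −0.69 with SE 0.09 and adjusted p = 0.00572). Cbs, which makes cystathionine, had 64.6, 60.01 and 72.6 CPM in sham, 44.9, 51.3 and 63.6 in cancer and 30.5, 36.8 and 34.9 with nivolumab (log2 fold change −0.95 with SE 0.13 and adjusted p = 0.00642). Both were lower in every nivolumab library than in any of the other 6.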
